A study of Mus musculus with 2 samples.

Results

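Immediate-early and heat shock genes were followed in the immune cells of mouse brains that carried a GL261 glioma, a transplanted mouse glioma line. The members are 35 genes, found by their symbols among the 32285 genes counted in each library. They were separated into 7 AP-1 genes (Fos, Fosb, Fosl2, Jun, Junb, Jund, Atf3), 3 EGR genes (Egr1, Egr2, Egr3), 14 feedback and early response genes and 11 heat shock genes. The study has 2 libraries, 1 from wild-type mice and 1 from mice labelled Fcgr2b knockout, which should lack the inhibitory Fc receptor of B and myeloid cells. All mice of both groups received an antibody against PD-1, 200.0 µg on days 10, 13 and 16 after the tumour cells, and their brains were taken on day 20. Cells of 5 brains were pooled in each group and sorted as live cells with CD45.2. No mice without tumour or without the antibody are among the samples, and the labels do not state strain, age or sex. They name polyA RNA for the wild-type library and total RNA for the other, and the sorting text names lung where the tissue is brain.

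With 1 library for each genotype there is no replicate, so no p-value is given, and a difference between genotypes cannot be told apart from a difference between 2 libraries. Intervals, in parentheses, are 95% intervals that cover counting error only. After filters, 3544 cells of the wild-type library (median 2602 UMIs) and 8172 of the knockout-labelled library (median 3962.5 UMIs) were kept. The study aimed at 10000 cells for each library, and 3854 and 9194 barcodes were deposited, of which 46 sequences occur in both (37 among cells kept, counted as separate cells). The members made 2.72 and 2.66% of all UMIs. Clusters were named from marker genes, and the 13 classes that reached 50 cells in both libraries were compared. The class names mean cells like that type, as macrophage-like, and the mixed T cells are a cluster led by Tcf7, S1pr1 and Gramd3. Of the markers listed for its type, each class had all at 50 CPM or more in both libraries, apart from 1 or 2 genes in macrophages and monocytes, NK cells, neutrophils and type 2 conventional dendritic cells. CPM here is the UMIs of a gene per 1000000 UMIs of its class in that library. T cell genes, as a measure of free RNA, stood at 1.52 and 3.12% of their library level in macrophages and monocytes and at 0 and 4.54% in microglia, and macrophage genes at 0 and 1.28% in CD8 T cells. In every class compared, cells of the knockout-labelled library had the higher median UMI count and the lower mitochondrial share. Fcgr2b itself was 365 and 249 CPM in macrophages and monocytes and 367 and 129.6 CPM in microglia of the wild-type and the knockout-labelled library. Which part of the gene was deleted is not stated in the labels, and the 5' reads may lie outside it, so this checks nothing.

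Immediate-early genes are transcribed within minutes of a stimulus from factors already present in the cell. Fos and Jun proteins pair to form the transcription factor AP-1, EGR proteins are zinc-finger transcription factors, and many of the others end the signal: DUSP phosphatases switch off MAP kinases, Zfp36 and Zfp36l1 destabilise messenger RNAs, Nfkbia holds NF-kappaB in the cytoplasm and Socs3 blocks cytokine receptors. Heat shock genes encode chaperones that fold proteins, and heat shock factor 1 drives their induction at heat shock elements. In immune cells the first set answers antigen receptors and danger signals and the second damaged protein, and both are known to be induced while a tissue is dissociated.

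The bases before the start sites of some members are shown to set the letters of the 2 sets side by side. RefSeq promoters of build GRCm38.p6 were matched for 29 of the 35 members, and the 250 bases before each start were searched on both strands. The inducible HSP70 genes, Hspa1a (ENSMUSG00000091971, chromosome 17, 34969190 to 34972156) and Hspa1b (ENSMUSG00000090877, chromosome 17, 34956436 to 34959238), are shown first, since their windows were identical at 247 of 250 positions (98.8%). Capitals mark a short heat shock element, GAANNTTC (TTCNNGAA was also searched), which begins 104 bases before each start.
Hspa1a, chr17:34972157-34972406, minus strand: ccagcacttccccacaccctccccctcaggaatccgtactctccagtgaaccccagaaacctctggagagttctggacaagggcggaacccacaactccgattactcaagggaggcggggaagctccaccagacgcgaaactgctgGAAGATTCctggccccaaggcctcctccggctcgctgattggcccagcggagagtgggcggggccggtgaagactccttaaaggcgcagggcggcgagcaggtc
Hspa1b, chr17:34959239-34959488, minus strand: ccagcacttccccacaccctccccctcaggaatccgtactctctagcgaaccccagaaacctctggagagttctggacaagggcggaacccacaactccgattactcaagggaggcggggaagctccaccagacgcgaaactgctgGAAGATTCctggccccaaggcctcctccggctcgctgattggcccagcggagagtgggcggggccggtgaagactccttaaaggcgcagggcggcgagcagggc
The next stretch lies between the RefSeq starts of the chaperonin genes Hspd1 (ENSMUSG00000025980, chromosome 1, 55077835 to 55088243) and Hspe1 (ENSMUSG00000073676, chromosome 1, 55088132 to 55091307), which are read in opposite directions. It is 30 bases on the strand of Hspe1, and its capitals are 2 overlapping full heat shock elements, GAANNTTCNNGAA or its reverse complement, inside the windows of both genes.
Hspe1, chr1:55088053-55088082, plus strand: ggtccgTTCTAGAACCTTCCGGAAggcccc
Full elements stood in 0.466% of the 32851 promoter windows of all genes and short ones in 12.8%. Of the 8 heat shock members matched, Hspd1 and Hspe1 held a full element, and 7 held a short one: these 2, Hspa1a, Hspa1b, Hsph1, Dnaja1 and Dnaja4. Among 21 matched members of the other sets, none held a full element, and Fosl2, Jun and Egr2 held a short one. A full element always contains short ones.
The immediate-early windows held other letters. Fos is shown because it made the largest part of the AP-1 difference in macrophages, Dusp1 for its cyclic AMP response element (TGACGTCA) and Dusp5 for a pair of CArG boxes, the sequence bound by serum response factor. Capitals mark the TATA box (TATAAA) of Fos, the TGACGTCA of Dusp1 and both CArG boxes of Dusp5.
Fos, chr12:85473640-85473889, plus strand: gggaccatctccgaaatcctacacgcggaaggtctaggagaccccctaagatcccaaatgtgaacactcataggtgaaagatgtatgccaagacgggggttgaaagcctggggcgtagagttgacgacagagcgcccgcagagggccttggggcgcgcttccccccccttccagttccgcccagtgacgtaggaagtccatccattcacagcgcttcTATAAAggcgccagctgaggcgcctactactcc
Dusp1, chr17:26508520-26508722, minus strand: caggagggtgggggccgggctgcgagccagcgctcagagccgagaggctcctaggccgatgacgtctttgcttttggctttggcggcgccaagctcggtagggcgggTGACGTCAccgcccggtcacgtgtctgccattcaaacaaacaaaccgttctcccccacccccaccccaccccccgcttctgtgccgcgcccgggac
Dusp5, chr19:53529058-53529087, plus strand: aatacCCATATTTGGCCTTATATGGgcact
A CArG box stood in the windows of Dusp5, Egr2 and Zfp36 and in 1.47% of all windows. TGACGTCA stood in those of Btg2 and Dusp1 and in 1.55% of all, and TATAAA in those of Fos, Btg1, Gadd45b and Zfp36l1 and in 12.4% of all. The AP-1 site TGANTCA was found before Zfp36l1 alone of the members matched, and in 6.75% of all windows. Such a match describes letters, not binding.

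Across the 13 cell classes compared, most immediate-early genes were highest in microglia or other myeloid cells. The chaperones were split between microglia and other classes, mostly lymphocytes. Every highest or lowest class named below is among these 13, and smaller classes, given at the end, exceeded some of them. Fos (c-Fos, ENSMUSG00000021250, chromosome 12, 85473890 to 85477273) was 4674 CPM in microglia of the wild-type library and 2897 CPM in those of the knockout-labelled library. Its lowest level was 146 CPM in CD8 T cells of the first and 104 CPM in cycling CD8 T cells of the second, a range of 32.1-fold and 27.9-fold over the 13 classes. Fosb, Jun, Atf3, Egr1, Egr2 and Egr3 were also highest in microglia in both libraries. Atf3, a stress-induced partner of Jun, ranged from 3443 CPM there to 33.8 CPM in cycling CD8 T cells of the wild-type library, 102-fold. Fosl2 and Jund, by contrast, were highest in NK cells in both libraries among the 13 classes. Fosl2 was 862 and 634 CPM there and Jund 2969 and 2172 CPM. Jund varied least of the AP-1 genes, 2.49-fold and 2.44-fold between its highest class and its lowest, migratory dendritic cells. Junb was highest in neutrophils of the wild-type library (6799.8 CPM) and in macrophages and monocytes of the other (3385 CPM), and lowest in B and plasma cells (1131 CPM) and cycling CD8 T cells (808 CPM).

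Over the same 13 classes, the feedback genes were split among myeloid classes. Migratory dendritic cells had the highest Klf6 (4429 and 2559 CPM), Gadd45b (1306 and 1506), Dusp5 (889 and 925) and Zfp36l1 (889 and 821). Klf6 is a zinc-finger factor and Gadd45b a stress sensor of the MAP kinase pathway. Ier3, Dusp1 and Nfkbia were highest in neutrophils of the wild-type library (2330.2, 3029 and 6461 CPM) and in macrophages and monocytes of the knockout-labelled library (2290.1, 2212 and 2069 CPM). Dusp2, a nuclear phosphatase of MAP kinases, was the lymphoid member, highest in NK cells (1225 and 780.1 CPM) and lowest in type 1 conventional dendritic cells (78.2 and 79.2 CPM). The highest class differed between libraries for Zfp36 (microglia at 2502 CPM, then macrophages and monocytes at 1797), Ier2 (microglia at 814, neutrophils at 536), Ier5 (microglia at 1213, migratory dendritic cells at 913) and Socs3 (microglia at 596, macrophages and monocytes at 778). It also differed for the growth-restraining genes Btg1 (neutrophils at 2944, mixed T cells at 1526) and Btg2 (microglia at 864, type 1 conventional dendritic cells at 801). Their lowest levels fell mostly in lymphocytes: Ier3 was 12.8 and 18.6 CPM in NK cells, and cycling CD8 T cells were lowest for 10 immediate-early members in the knockout-labelled library.

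**Figure D1:**
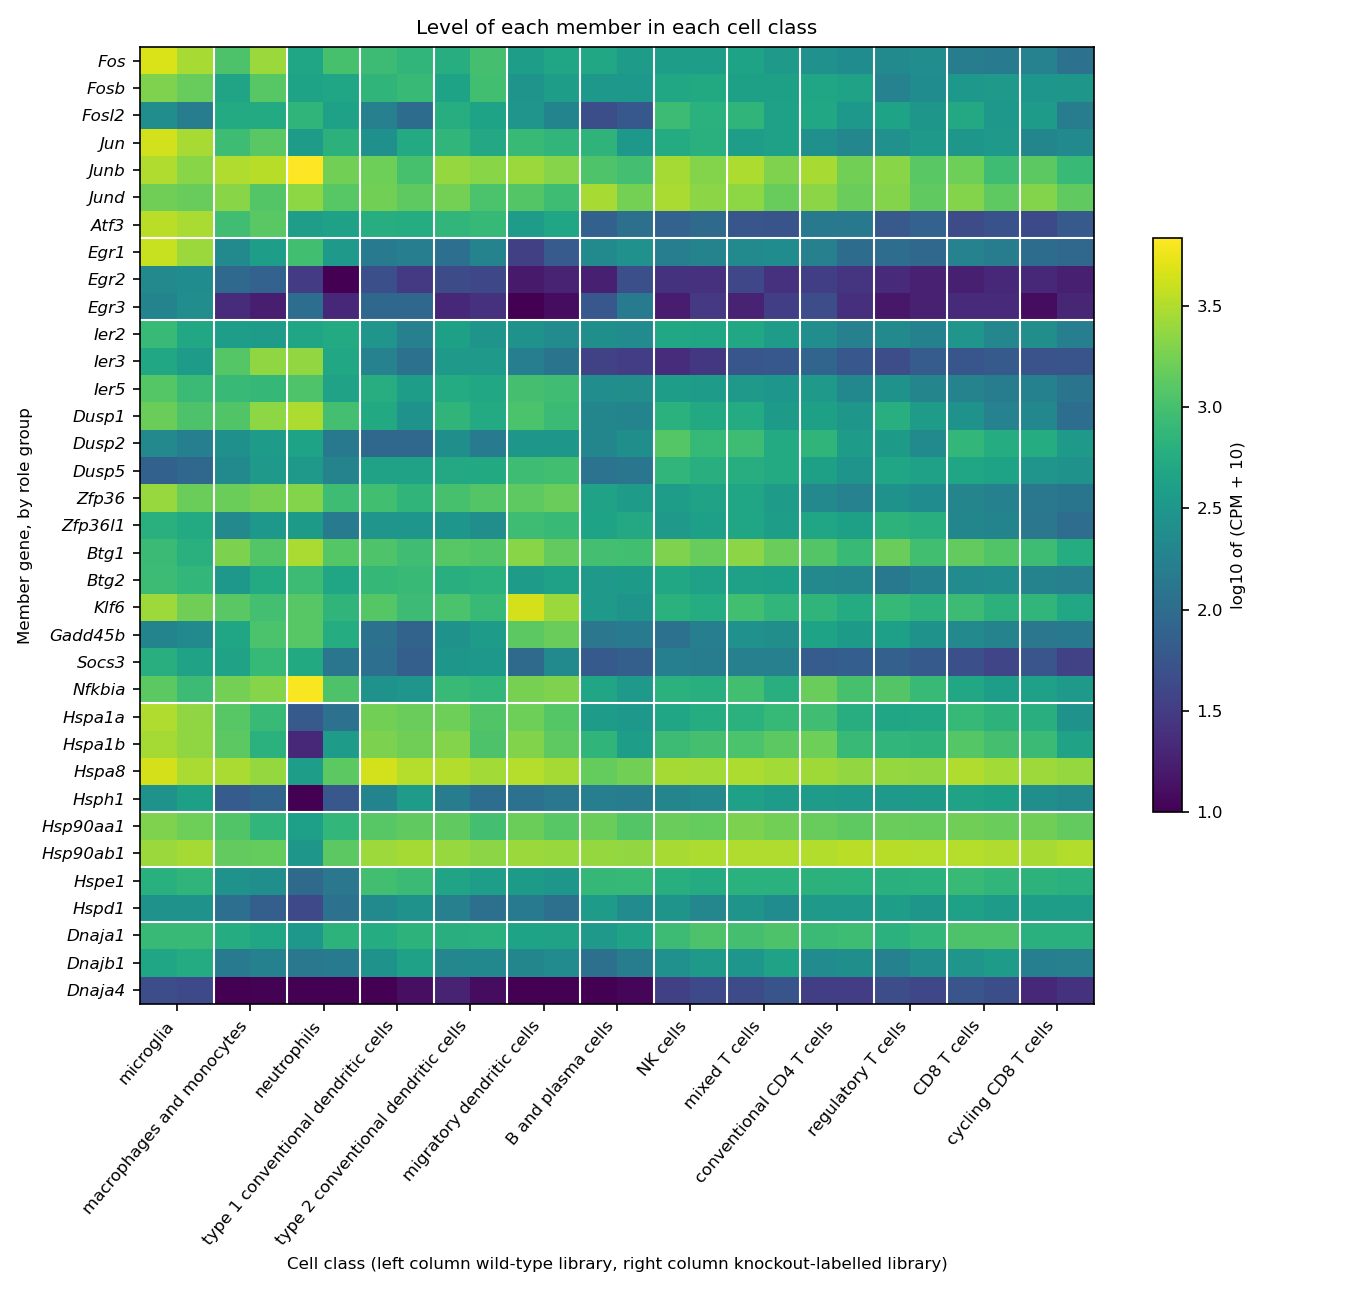
Level of each of the 35 members (rows, grouped by role) in the 13 classes compared, as log10 of CPM with 10 added; each class has a column for the wild-type and one for the knockout-labelled library. Microglia at the left are bright for Fos, Jun, Atf3 and Egr1, and neutrophils are dark for the chaperones.

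Heat shock genes showed a different map over the 13 classes. The inducible genes Hspa1a and Hspa1b were highest in microglia in both libraries, summing to 5931 and 4563 CPM, followed by dendritic cells, where type 1 conventional dendritic cells had 3599 and 3154 CPM. Reads from these paralogs can be shared: of windows of 90 bases in the first 500 bases of either transcript, 49.6% occur in both, so their split is uncertain and their sum is used below. Among the 13 classes Dnajb1, the co-chaperone induced with them, also peaked in microglia (450.3 and 538 CPM). The constitutive HSP70, Hspa8, was 4499.7 CPM in microglia of the wild-type library and highest in type 1 conventional dendritic cells of the other (3326 CPM). Hsph1, Hsp90ab1, Dnaja1 and Hspd1 were highest in T cells. Hsph1, a nucleotide exchange factor of HSP70, was 419 and 402 CPM in CD8 T cells against 56.2 and 70.2 CPM in macrophages and monocytes. Hsp90ab1, the constitutive HSP90, peaked in regulatory T cells (3358 CPM) and conventional CD4 T cells (3462 CPM), and Dnaja1 in CD8 T cells (1093 and 1098 CPM). The mitochondrial chaperonin Hspd1 was 412 and 352 CPM in CD8 T cells and 97.5 and 62.4 CPM in macrophages and monocytes, and its partner Hspe1 was highest in type 1 conventional dendritic cells (928 and 838 CPM). Hsp90aa1, the inducible HSP90, was highest in microglia (1925 CPM) and in mixed T cells (1681 CPM). Neutrophils of the wild-type library were lowest for 9 of the 11 heat shock genes. Dnaja4 stayed below 50 CPM in every one of the 13 classes compared, with its highest level, 45.3 CPM, in CD8 T cells of the wild-type library, although a CD8 cluster led by Ccl5 had 66.4 and 99 CPM. The 39 gamma-delta T cells of the wild-type library, too few to compare, had 79.2 (34.2 to 156) CPM.

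Members that resembled each other across classes were mostly of the same set. Over the 26 class and library values, as log2 of CPM with 10 added, the Pearson correlation of pairs of AP-1 genes had a median of 0.31, that of heat shock pairs 0.61 and that of AP-1 with heat shock genes -0.12. These points share libraries, depth and cell lineage, so the values describe and do not test. Fos was most like Atf3 (r = 0.90) and Fosb (r = 0.86), and Zfp36 most like Ier5 (r = 0.96). Hspd1 and Hspe1, which share the heat shock elements shown above, had r = 0.88, close to the 0.89 of Hspd1 with Hsph1. Jund and Zfp36l1 stood apart, since their nearest members reached only r = 0.46 and r = 0.45.

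Between the libraries, the 7 AP-1 genes together were higher in macrophages and monocytes of the knockout-labelled library and lower in each of the other 12 classes. Their sum in macrophages and monocytes was 9096 CPM in the wild-type library and 11396 CPM in the knockout-labelled library, a ratio of 1.25 (1.23 to 1.28). CD8 T cells had 4906 and 3368 CPM, a ratio of 0.686 (0.668 to 0.706). NK cells had 8119 and 6419 CPM, a ratio of 0.791 (0.769 to 0.813), although the median log2 ratio of the 7 members was 0.047 there. Microglia, which had the most AP-1 RNA of the 13 classes compared, had 19408 and 13986 CPM, a ratio of 0.721 (0.7 to 0.742). The ratios of the other classes lay between 0.514 in neutrophils and 0.949 in type 2 conventional dendritic cells, and only the latter class was also above 1 when CPM were scaled by the median gene. Depth moves with these values: within each class and library, cells with more UMIs had fewer AP-1 UMIs once thinned to 1000 UMIs (Spearman correlation -0.507 to -0.0661 over the 26 sets of cells), and the knockout-labelled cells were deeper in every class. In cells of 2000 to 4000 UMIs, a range chosen after the data were seen, the AP-1 ratio was 1.57 (1.53 to 1.62) in macrophages and monocytes, 0.694 (0.661 to 0.728) in CD8 T cells, 0.858 (0.824 to 0.893) in NK cells and 0.904 (0.86 to 0.951) in microglia. Both dendritic cell classes measured there had a ratio above 1, the opposite direction to that over all their cells. It was 1.26 (1.17 to 1.36) in type 2 conventional and 1.06 (0.951 to 1.17) in migratory dendritic cells, where the interval includes 1. The range can also change the mix of clusters. In knockout-labelled macrophages and monocytes, the clusters led by Ccl8 and by Nos2, with AP-1 of 8109.7 and 7429 CPM, had medians of 7113 and 6168 UMIs. Those led by Cxcl2 and by Dusp1, with 17970.1 and 19230.3 CPM, had medians of 3179.5 and 3317 UMIs. The part of this mix in the ratios was not tested.

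**Figure D2:**
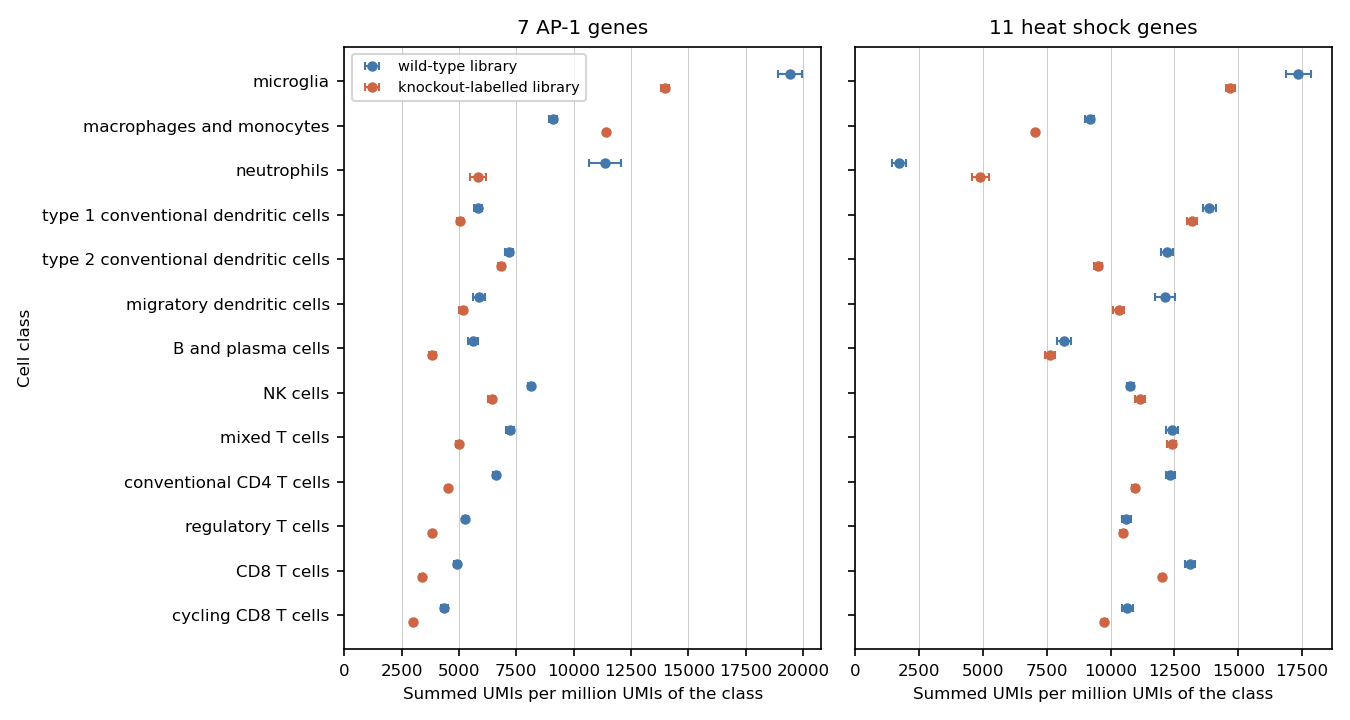
Summed level of the 7 AP-1 genes (left) and the 11 heat shock genes (right) in each class, in CPM of the class; points are the 2 libraries and bars exact 95% Poisson intervals of the count. On the left the knockout-labelled point lies to the right only in macrophages and monocytes (11396 against 9096), and on the right it does so in neutrophils and slightly in NK cells.

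The heat shock genes together were lower in 11 of the 13 classes. They summed to 9179 and 7044 CPM in macrophages and monocytes, a ratio of 0.767 (0.752 to 0.783), so this class had more AP-1 and less heat shock RNA in the knockout-labelled library. CD8 T cells had 13112 and 12012 CPM, a ratio of 0.916 (0.901 to 0.931), and in cells of 2000 to 4000 UMIs the ratio was above 1, 1.07 (1.04 to 1.1). That range can change their mix of clusters too. In the knockout-labelled library the CD8 cluster led by Cd8a and Klrd1 had a median of 5934 UMIs and 10502 CPM of heat shock RNA. The CD8 cluster led by Ccl5 had a median of 3382 UMIs and 18397 CPM. The part of this mix was not tested. NK cells had 10779.6 and 11146 CPM, a ratio of 1.03 (1.01 to 1.06). Both NK clusters, taken singly, were lower in the knockout-labelled library. That led by Klra8 had 10649.7 and 10485.5 CPM and that led by Klra4 and Serpinb9b 13829.8 and 12412.2 CPM. The latter cluster made 6.16% of the NK cells in the wild-type and 41.3% in the knockout-labelled library. The part of this NK mix was not tested. Neutrophils and NK cells were the 2 classes with a ratio above 1, a number that was 4 or 5 under the other scalings.

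Few single members passed a 2-fold difference (log2 ratio of 1 with 10 CPM added). A gene entered this count in a class when the mean of both libraries was at least 50 CPM, which 34 members did in some class and 26 in every class, Dnaja4 in none. Of 33 members tested in macrophages and monocytes, Fos, Fosb and Gadd45b were past 2-fold higher and Hspa1b past it lower, where 4.98% of all 2790 genes tested were past it higher and 8.14% lower. No member passed it in CD8 T cells (0 of 30; 0.44% of all genes were past it higher and 1.01% lower) or in NK cells (0 of 31; 0.626% and 1.22%). None passed it in microglia (3.17% and 3.04% of all genes), mixed T cells (0.716% and 1.14%) or regulatory T cells (0.945% and 0.793%). Outside neutrophils, the other members past 2-fold were Fosb in type 2 conventional dendritic cells (2.38% of all genes higher and 3.67% lower), Jun in type 1 conventional dendritic cells (0.946% and 2.18%), Egr3 in B and plasma cells (4.37%) and Socs3 in migratory dendritic cells (2.41% each way), all higher. Lower were Jun in B and plasma cells (4.48% of all genes lower), Fosl2 and Hspa1a in cycling CD8 T cells (1.58%, with 0.907% higher) and Hspa1b in conventional CD4 T cells (0.801%, with 0.567% higher). The median log2 ratio of all genes tested was itself -0.18 in macrophages and monocytes and -0.22 in microglia, and between -0.13 and 0.08 in the other classes, so small differences are read against that shift.

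**Figure D3:**
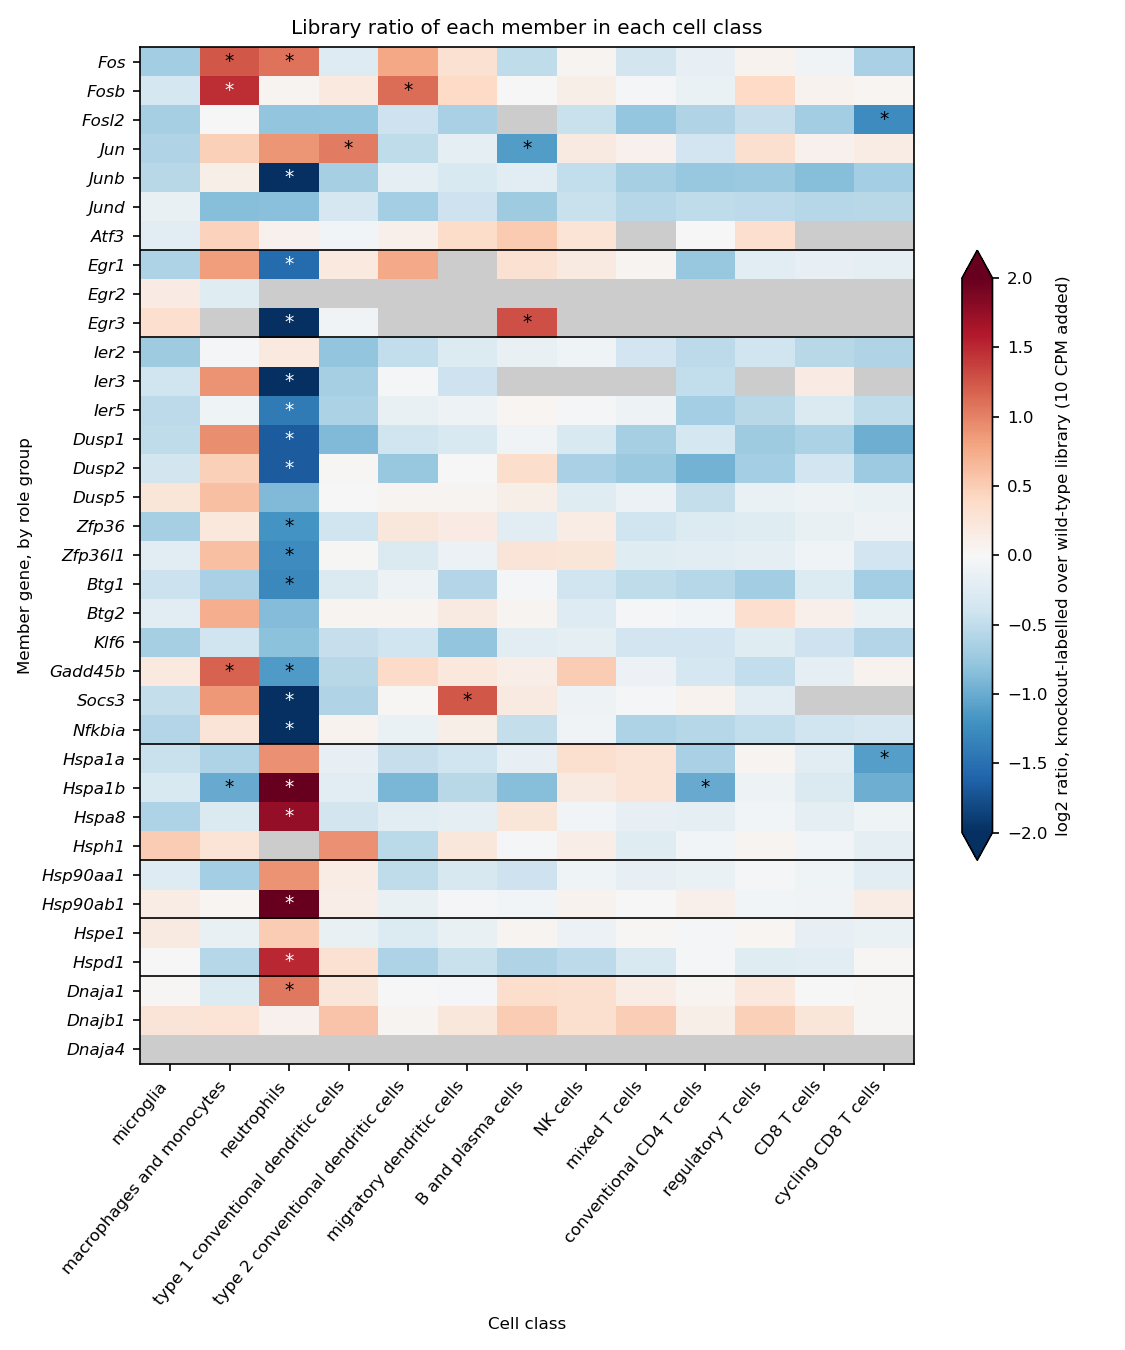
Log2 ratio of each member (rows) in each class (columns), knockout-labelled over wild-type library with 10 CPM added; red is higher in the knockout-labelled library, blue lower, a star marks a 2-fold difference or more, and grey a mean below 50 CPM. The row of Jund is blue in all 13 classes and that of Dnajb1 pale red in all 13, while neutrophils hold 19 of the 31 stars.

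The AP-1 difference of macrophages and monocytes lay in the Fos genes. Fos was 1081 CPM in the wild-type library and 2561 CPM in the knockout-labelled library, a ratio of 2.37 (2.24 to 2.51). Fosb (ENSMUSG00000003545, chromosome 7, 19302696 to 19310051), a close relative of Fos, was 439 and 1234 CPM, a ratio of 2.81 (2.57 to 3.08). Fosl2, the other Fos gene, was nearly level at 525 and 527 CPM. Jun was 898 and 1258 CPM, Atf3 913 and 1263 and Junb 3135 and 3385, while Jund was lower, 2104 and 1168 CPM (ratio 0.555). Among cells of 2000 to 4000 UMIs the ratio was 3.1 (2.84 to 3.37) for Fos and 3.22 (2.81 to 3.72) for Fosb. That range can also change the mix of clusters.

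The libraries held different macrophages, and the Fos levels followed the clusters. A cluster led by Cxcl2, Inhba, Ier3 and Tnf and one led by Dusp1, Gpnmb and Cebpa held 608 and 563 knockout-labelled cells and under 20 wild-type cells each. A cluster of 1 library may reflect that library and not a cell type. The members were left out of the clustering, yet Ier3 was among the leading genes of the first cluster and Dusp1 and Fos among those of the second. Fos was 4389.7 CPM in the first and 4811 CPM in the second, and AP-1 together 17970.1 and 19230.3 CPM. In the other clusters found nearly only in the knockout-labelled library, AP-1 was 9183 CPM (led by Ifnb1 and Arg1), 8109.7 CPM (Ccl8, Apoe), 7429 CPM (Nos2, Mmp12) and 12719 CPM (Slc7a2, Thbs1). The 3 remaining clusters had 20 or more cells in both libraries. In that led by Slfn4 and Ms4a4c (76 and 619 cells) Fos and its 2 relatives summed to 2378 and 3303 CPM, a ratio of 1.39 (1.28 to 1.51). In that led by Chil3 and Ace (134 and 91 cells) they were 1564 and 2065 CPM, a ratio of 1.32 (1.2 to 1.45). In that led by Slfn5 and Vcan (80 and 52 cells) they were 1766 and 1682 CPM, a ratio of 0.952 (0.836 to 1.08). AP-1 as a whole had ratios of 1.06, 1.04 and 0.804 in these 3 clusters, smaller than or opposite to the 1.25 of the class, and with the 3 weighted equally the log2 ratio was -0.055 against 0.33.

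**Figure D4:**
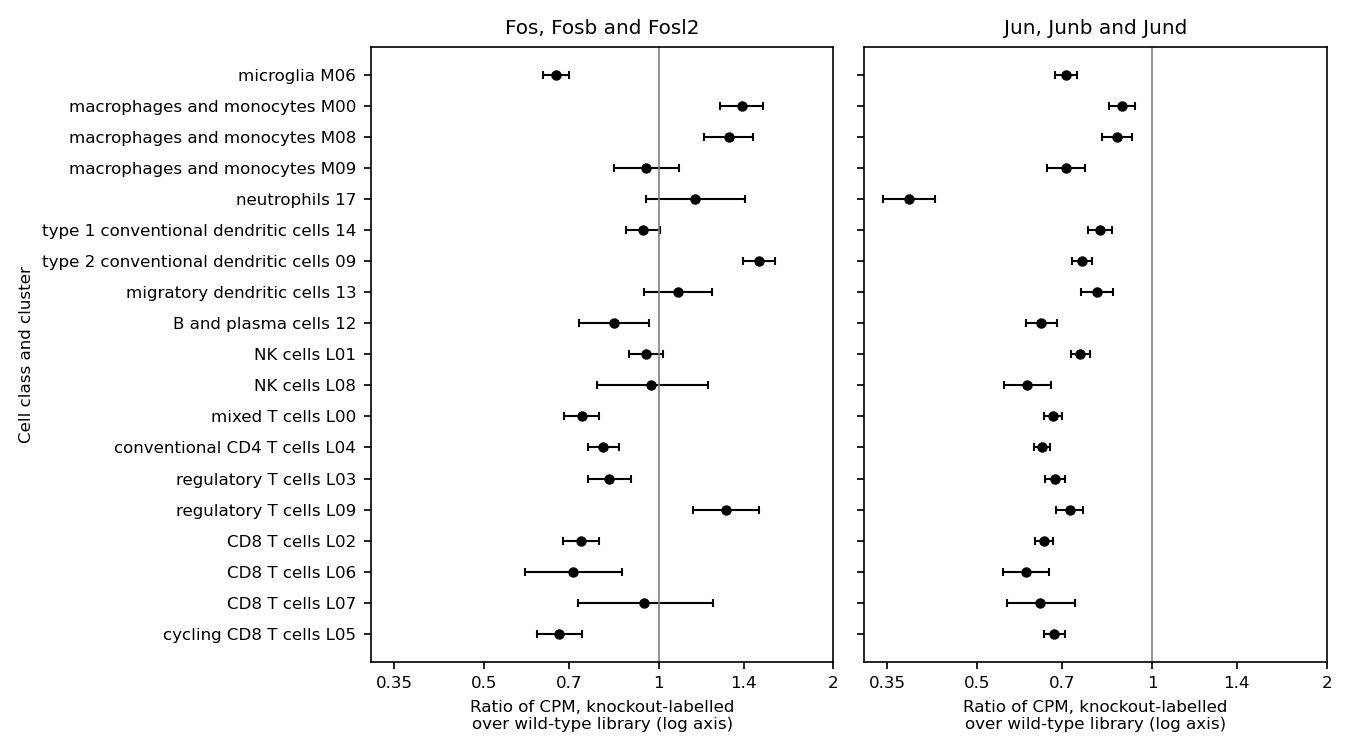
Ratio of summed CPM, knockout-labelled over wild-type library, of Fos, Fosb and Fosl2 (left) and of Jun, Junb and Jund (right) in the 19 clusters with 20 or more cells in both libraries; bars are exact 95% intervals and the axis is logarithmic. All 19 points on the right lie below 1, while those on the left lie on both sides, up to 1.49 in type 2 conventional dendritic cells.

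The Jun genes together were lower in the knockout-labelled library in 13 of 13 classes, by ratios from 0.382 in neutrophils to 0.947 in macrophages and monocytes; scaled by the median gene, macrophages and monocytes were the 1 class above 1. The same held in 19 of 19 clusters, from 0.382 to 0.887. In cells of 2000 to 4000 UMIs, macrophages and monocytes had a ratio of 1.17 (1.13 to 1.22), CD8 T cells 0.66 (0.625 to 0.698) and NK cells 0.833 (0.794 to 0.873). Outside microglia, most of this was Junb and Jund, which encode the Jun proteins that restrain growth in several cell types. In microglia the Jun genes summed to 9141 and 6504 CPM, and Jun alone was 4387 and 2902 CPM. Jund (ENSMUSG00000071076, chromosome 8, 70698949 to 70700616) was 1997 and 1342 CPM in CD8 T cells, a ratio of 0.672 (0.644 to 0.702), and 2969 and 2172 CPM in NK cells, a ratio of 0.731 (0.697 to 0.767). It was lower in 13 of 13 classes (12 when scaled by the median gene) and in 19 of 19 clusters, but in 8 of the 10 classes that had 20 or more cells of 2000 to 4000 UMIs in each library. Junb (ENSMUSG00000052837, chromosome 8, 84974484 to 84978718) had the largest difference of the AP-1 genes in CD8 T cells, 1599.7 and 878 CPM, a ratio of 0.549 (0.522 to 0.577), and in NK cells, 2839 and 2024 CPM, a ratio of 0.713 (0.678 to 0.749). It was lower in 12 of 13 classes under each scaling, macrophages and monocytes being the exception, and in 19 of 19 clusters, theirs included. At matched depth Junb was lower in 7 of 10 classes. Migratory (1.08) and type 2 conventional dendritic cells (1.07) were then above 1 too, with intervals that include 1. Jun itself did not follow in most classes: it was higher in 8 of 13 classes and lower in 5 under each scaling. It was 308 and 328 CPM in CD8 T cells and 691 and 312 CPM in B and plasma cells. Fosl2 was lower in 11 of the 12 classes tested (11 or 12 under the other scalings), 507 and 311 CPM in CD8 T cells (ratio 0.612, 0.561 to 0.669), although in 5 of 9 classes at matched depth.

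In microglia, which carried the most of these transcripts among the classes compared, Fos was 4674 and 2897 CPM, a ratio of 0.62 (0.583 to 0.659), the opposite direction to macrophages. Jun was 4387 and 2902 CPM and Egr1 3926 and 2547 CPM, both lower in the knockout-labelled library. These rest on 70 and 295 cells. Within 2000 to 4000 UMIs (26 and 90 cells) the ratio of Fos was 0.835 (0.751 to 0.928) and that of the Fos family 0.938 (0.861 to 1.02), nearer to 1. Type 2 conventional dendritic cells went with macrophages: Fosb was 427 and 935 CPM and Fos 569 and 975 CPM. T cell genes in the wild-type cells of that class were at 23.2% of their library level, against 5.04% in the knockout-labelled cells; their part in the result was not tested.

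Of the 13 classes compared, microglia had the highest EGR levels. Egr1 passed the level filter in 12 of these classes, migratory dendritic cells being the exception. Mast cells and basophils, too few to compare, had more Egr1 in the knockout-labelled library, 3741 CPM against 2547 CPM in microglia. In the basophil cluster of the wild-type library it was 6773 CPM, against 3926 CPM in microglia. In macrophages and monocytes Egr1, a growth-factor-induced zinc-finger factor, was 209 CPM in the wild-type and 379 CPM in the knockout-labelled library, a ratio of 1.81 (1.59 to 2.07). Egr2 was 83.4 and 68.6 CPM, a ratio of 0.823 (0.667 to 1.03) whose interval includes 1. Egr1 was nearly level in CD8 T cells at 168 and 149 CPM (ratio 0.889, 0.769 to 1.03) and in NK cells at 153 and 175 CPM (ratio 1.14, 0.945 to 1.37). Over the 12 classes tested it was higher in 6 and lower in 6 under each scaling. Egr2 passed the level filter in 2 classes and Egr3 in 4. Egr3 in B and plasma cells, 48.6 and 134 CPM, had the largest ratio of an EGR gene outside neutrophils.

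Among the 14 feedback genes, macrophages and monocytes had 10 with a positive and 4 with a negative log2 ratio (median 0.54, against -0.18 for all genes), and CD8 T cells 2 and 11 of 13 tested (median -0.28 against -0.08). Gadd45b in macrophages and monocytes was 465 and 1063 CPM, a ratio of 2.29 (2.1 to 2.5). Dusp1, a nuclear phosphatase of MAP kinases, was 1159 and 2212 CPM there, a ratio of 1.91 (1.81 to 2.02). Both were highest in the 2 clusters led by Cxcl2 and by Dusp1, where Dusp1 was 4320.4 and 4878 CPM and Gadd45b 2623 and 1756 CPM. In the 3 clusters with both libraries Gadd45b had ratios of 1.42, 1.19 and 0.602. Ier3, an early gene that modulates survival, was 1224 and 2290.1 CPM in the class and 5584 CPM in the Cxcl2 cluster. In the 3 clusters with both libraries it was lower in the knockout-labelled library: 1505 and 1148 CPM in the Slfn4 cluster, 883 and 256 in the Chil3 cluster and 1123 and 792 in the Slfn5 cluster. Socs3, Btg2, Dusp5 and Zfp36l1 were also higher, with log2 ratios of 0.87, 0.73, 0.60 and 0.60. So were Dusp2 (0.48), Nfkbia (0.26) and Zfp36 (0.21), whereas Btg1, at -0.65, and Klf6, at -0.39, were lower and Ier2 (-0.02) and Ier5 (-0.09) near 0.

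Lymphocytes had lower levels of several of the same genes. Dusp1 was 267 and 169 CPM in CD8 T cells, a ratio of 0.633 (0.561 to 0.715), and was lower in 12 of 13 classes (11 or 12 under the other scalings). Ier2 was 288 and 193 CPM there, a ratio of 0.671 (0.599 to 0.754). NK cells had their largest differences in Dusp2, 1225 and 780.1 CPM (ratio 0.637, 0.588 to 0.689), and Gadd45b, 103 and 152 CPM (ratio 1.47, 1.19 to 1.82). Klf6 was lower in 13 of 13 classes under each scaling and in 19 of 19 clusters, for example 4429 and 2559 CPM in migratory dendritic cells, though in 7 of 10 classes at matched depth. Btg1, a brake on proliferation, was lower in 13 of 13 classes (12 under the other scalings) and 9 of 10 at matched depth; it was 1521 and 937 CPM in regulatory T cells. Nfkbia was lower in 10 of 13 classes under each scaling, with 1513 and 1018 CPM in conventional CD4 T cells. Each class has its own cells but all classes come from the same 2 libraries, so agreement between classes does not replace replicates.

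Inducible HSP70 differed more than the other chaperones in macrophages and monocytes. There Hspa1a and Hspa1b summed to 2519.9 CPM in the wild-type library and 1440.3 CPM in the knockout-labelled library, a ratio of 0.572 (0.55 to 0.594), against 0.842 (0.822 to 0.862) for the other 9 heat shock genes. Counted singly, Hspa1b was 1293 and 640.2 CPM (ratio 0.495, 0.469 to 0.523) and Hspa1a 1227 and 800.1 CPM (ratio 0.652, 0.617 to 0.69). The clusters disagreed on the direction. The sum was 2243 and 826 CPM in the Slfn4 cluster, 2256 and 5179 CPM in the Chil3 cluster and 2925 and 2066 CPM in the Slfn5 cluster, ratios of 0.368, 2.3 and 0.706. Among clusters nearly only in the knockout-labelled library it ranged from 319.9 CPM (Nos2) to 3652 CPM (Ifnb1), so the cluster with the most HSP70 was not one of those with the most AP-1.

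In lymphocytes inducible HSP70 was lower in conventional CD4 T cells (2536 and 1379.9 CPM, ratio 0.544, 0.52 to 0.569) and cycling CD8 T cells (1421 and 687 CPM, ratio 0.483, 0.451 to 0.519). It was higher in mixed T cells (1711 and 2073 CPM, ratio 1.21, 1.14 to 1.29) and NK cells (1309 and 1542 CPM, ratio 1.18, 1.11 to 1.25). The NK clusters disagreed on the direction, with 1252 and 1432 CPM in that led by Klra8. That led by Klra4 and Serpinb9b had 2638 and 1752 CPM. B and plasma cells had 1051 and 697 CPM, but in their cells of 2000 to 4000 UMIs the ratio was 1.65 (1.16 to 2.43). CD8 T cells had 1991 and 1664 CPM, a ratio of 0.835 (0.801 to 0.872). In cells of 2000 to 4000 UMIs, a range that can also change their mix of clusters, the ratio was 1.08 (1.01 to 1.15). Counted singly over all CD8 T cells, Hspa1b was 1216 and 997 CPM and Hspa1a 775 and 667 CPM. In NK cells Hspa1a was 449 and 564 CPM (ratio 1.26, 1.13 to 1.4) and Hspa1b 859.7 and 977 CPM (ratio 1.14, 1.05 to 1.23). The CD8 clusters differed from each other in this sum more than the libraries did. A cluster led by Gzmk had 5310.3 and 4347 CPM of inducible HSP70, against 1507 and 921 CPM in the largest cluster, led by Cd8a and Klrd1. Another cluster, led by Ccl5 and Itga1, had the most heat shock RNA of the CD8 clusters, 18038 and 18397 CPM, with 2724 and 2059 CPM of inducible HSP70.

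Cells with much inducible HSP70 were a minority in every class. After each cell was thinned to 1000 UMIs, cells with 5 or more Hspa1a and Hspa1b UMIs were 20.1% (15.8 to 25%) of macrophages and monocytes in the wild-type library and 11.8% (10.7 to 12.9%) in the knockout-labelled library, exact binomial intervals in parentheses. Conventional CD4 T cells had 22.2% (17.6 to 27.5%) and 11.8% (8.76 to 15.3%), and microglia 35.8% (24.5 to 48.5%) and 41% (35.3 to 46.9%). CD8 T cells had 17.5% (13.7 to 22%) and 16.2% (14.1 to 18.6%), and NK cells 8.04% (6.11 to 10.3%) and 11.4% (8.35 to 15.1%). The intervals of the 2 libraries were apart in macrophages and monocytes and in conventional CD4 T cells. In neutrophils 0 of 27 and 0 of 38 cells reached 5 UMIs, which allows shares of up to 11.1 and 7.89%. No class is known to lack these transcripts, so free RNA has no full control here; neutrophils, the class nearest to none, had 5.95% and 11.8% of cells with a UMI before thinning, at medians of 870 and 1413 UMIs. Outside neutrophils, the 10% of cells with the most HSP70 held 38.0 to 92.7% of its UMIs. The 10% with the most AP-1 held 20.8 to 29.1%. These shares cannot be set against each other, since they depend on how many UMIs of a set a cell has. HSP70 here is 2 genes and AP-1 7 genes. Of 159 thinned B and plasma cells of the knockout-labelled library, 135 had no HSP70 UMI.

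The 2 sets were not exclusive within cells. In 24 of the 24 class and library sets that had cells with 5 or more HSP70 UMIs, those cells held more AP-1 UMIs on average than cells without any. Thinned macrophages and monocytes had 8.26 AP-1 UMIs without HSP70 and 17 with 5 or more in the wild-type library, and 11.8 and 16.5 in the knockout-labelled library. Other heat shock UMIs were more numerous in them too, with means from 5.53 to 17.3 in microglia of the knockout-labelled library. Cells of a library share their preparation, so these are descriptions without a test.

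The remaining heat shock members tested had ratios nearer to 1 in macrophages and monocytes than the sum of Hspa1a and Hspa1b. By single gene, Hsp90aa1 and Hspd1 had lower ratios in this class than Hspa1a (0.652), and the interval of Hspd1 reaches below the ratio of that sum. Hsp90aa1, the stress-inducible HSP90, was 1157 and 722 CPM there, a ratio of 0.624 (0.589 to 0.661), while Hsp90ab1 was level at 1419 and 1463 CPM (ratio 1.03, 0.98 to 1.08). In CD8 T cells the HSP90 ratios were 0.94 (0.898 to 0.985) for Hsp90aa1 and 0.954 (0.923 to 0.985) for Hsp90ab1, and in NK cells 0.939 (0.883 to 0.999) and 1.05 (1.01 to 1.1). The chaperonin genes, which share the elements shown above, both had ratios under 1 in these 3 classes. Hspd1 was 97.5 and 62.4 CPM in macrophages and monocytes (ratio 0.64, 0.526 to 0.786), 412 and 352 in CD8 T cells (ratio 0.855) and 285 and 195 in NK cells (ratio 0.686). Hspe1 had ratios of 0.903 (0.804 to 1.02), 0.893 (0.836 to 0.954) and 0.922 (0.833 to 1.02) in the same order. Hspa8 was 2968 and 2416 CPM in macrophages and monocytes and lower in 11 of 13 classes (9 when scaled by the median gene).

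Dnajb1, Dnaja1 and Hsp90ab1 were the heat shock members higher in more classes than lower under each scaling, while Dnaja4 passed the level filter in no class. At matched depth, however, Hsp90ab1 was higher in 4 of 10 classes and lower in 6. Dnajb1 (ENSMUSG00000005483, chromosome 8, 83608193 to 83612653) was higher in the knockout-labelled library in 13 of 13 classes under each scaling, in 16 of 19 clusters and in 9 of 10 classes at matched depth. The size was small: 136 and 167 CPM in macrophages and monocytes (ratio 1.23, 1.04 to 1.45), 291 and 345 in CD8 T cells (ratio 1.19, 1.07 to 1.32) and 262 and 330.2 in NK cells (ratio 1.26, 1.1 to 1.44). Dnaja1 was higher in 11 of 13 classes (10 to 12 under the other scalings), with 858 and 1077 CPM in NK cells (ratio 1.26, 1.16 to 1.36). In CD8 T cells it was level (ratio 1, 0.95 to 1.06), and in macrophages and monocytes it was lower, 553 and 458 CPM (ratio 0.827, 0.763 to 0.899).

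Neutrophils differed most, on 84 and 51 cells. There 6 of 32 members tested were past 2-fold higher, where 14.0% of all genes were, and 13 lower, where 17.4% were. Nfkbia was 6461 and 1088 CPM (ratio 0.168, 0.143 to 0.198), Junb 6799.8 and 1683 CPM (ratio 0.248, 0.216 to 0.284) and Ier3 2330.2 and 482 CPM (ratio 0.207, 0.16 to 0.266). Heat shock genes together were 1705 and 4904 CPM, a ratio of 2.88 (2.43 to 3.42). Inducible HSP70, 63.5 and 466 CPM, was below the level that free RNA would give in either library, 84.4 and 512 CPM, and is read as background. Other measures moved with these. T cell genes in the knockout-labelled neutrophils were at 31.7% of their library level, against 3.92% in the wild-type ones, and RNA at that share of the library would give 61.7% of their heat shock level. The granule genes of immature neutrophils, Camp (4184 and 29478 CPM) and Ngp (4967 and 15546), were higher in the knockout-labelled library, while Cxcr2 (635 and 238) and Csf3r (1705 and 639), receptors of mature cells, were lower. The part of either in the member ratios was not tested. Without neutrophils the member and class pairs past 2-fold were 7 in place of 13 higher and 5 in place of 18 lower. The pairs tested were then 377 in place of 409, and the shares of all genes are given by class above.

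Other genes of the same pathways were counted from 4 lists. Of all genes in macrophages and monocytes, 4.98% were past 2-fold higher and 8.14% lower. These shares were 0.44 and 1.01% in CD8 T cells and 0.626 and 1.22% in NK cells. Of 26 other immediate-early genes, 22 were tested in macrophages and monocytes: 5 were past 2-fold higher and none lower. Their median log2 ratio was 0.47, against -0.18 for all genes. Rgs1, a brake on G-protein signalling, was 192 and 1329.8 CPM, a ratio of 6.91 (6.05 to 7.93), and the kinase gene Sgk1 188 and 825 CPM, a ratio of 4.39 (3.83 to 5.04). Nr4a1 (617 and 502 CPM) and Klf2 (601 and 534) had the lowest ratios. In CD8 T cells 1 of 20, Ier5l (105 and 44 CPM), was past 2-fold lower and none higher. Gadd45g was next (109.5 and 61.1 CPM), while Nr4a3 (448 and 477) and Ppp1r15a (202 and 212) were highest. In NK cells 0 of 21 passed: Sgk1 (55.6 and 121 CPM) and Nr4a3 (590.2 and 785) were highest and Rgs1 (1005 and 645) and Myc (97.3 and 61.2) lowest.

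Of 11 other AP-1 and bZIP genes, 8, 3 and 5 were tested in macrophages and monocytes, CD8 T cells and NK cells, and none was past 2-fold. In macrophages and monocytes Maf, a factor of tissue macrophages, was 198 and 95.9 CPM and Mafg 87.8 and 80.4, whereas Batf2 was 72 and 112. CD8 T cells had Maf at 107 and 67.9, Atf4 at 348 and 244 and Batf at 64.2 and 71.7 CPM. NK cells had Atf4 at 387 and 296, Maff at 119 and 100.3, Maf at 73.9 and 71 and Mafk at 53.9 and 55 CPM. Atf4, the effector of the integrated stress response, was lower in both lymphocyte classes.

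Of 33 other cytosolic or mitochondrial chaperone genes, 23, 25 and 26 were tested in these 3 classes, and 0, 1 and 1 were past 2-fold, all lower. The 2 were Cct6a, a subunit of the cytosolic chaperonin, in CD8 T cells (369 and 169 CPM, ratio 0.459, 0.412 to 0.512) and the mitochondrial HSP70 gene Hspa9 in NK cells (134 and 60.4 CPM, ratio 0.449, 0.338 to 0.589). Cct8 (136 and 68.8 CPM) and Cct6a (80.8 and 48.3) were lowest in macrophages and monocytes, Hspa9 (148 and 95.3) was next in CD8 T cells and Cct3 (173 and 92.3) in NK cells. The polyubiquitin gene Ubb was among the 2 highest in all 3, with 1107 and 2177, 1258 and 1661, and 1394 and 1939 CPM. Beside it stood Ahsa1, an activator of HSP90, in macrophages and monocytes (54.5 and 73.6) and NK cells (58.4 and 87.9), and Hspa4 in CD8 T cells (125 and 170.1).

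Of 13 endoplasmic reticulum chaperone genes, which answer unfolded protein there and not heat shock factor 1, 10, 12 and 9 were tested in these classes and none was past 2-fold. Hsp90b1 was among the 2 lowest in all 3 (623 and 386, 711 and 502, 635 and 535 CPM), and Manf, a secreted factor, among the 2 highest (126 and 229, 122 and 170.1, 110.0 and 170.4 CPM). Canx (267 and 133), Calr in CD8 T cells (423 and 309) and Pdia6 in NK cells (104 and 71.9) were the other low ones. Sdf2l1 in macrophages and monocytes (37.8 and 85.5) and CD8 T cells (39.8 and 60.4) and Dnajb9 in NK cells (89.5 and 105) were the other high ones.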

How the data were processed

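Single-cell RNA was measured by 10x Genomics 5' libraries in 2 samples, 1 for each genotype. The deposited values are whole UMI counts for each gene and barcode, not normalized, made by the authors with Cell Ranger 6.1.2 on build mm10 (GRCm38), per the file headers and the submitters' processing notes. How Cell Ranger was set is unknown here, the annotation release included.

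Barcodes with under 200 genes or over 10% mitochondrial UMIs were removed (10 and 196 of the wild-type, 13 and 373 of the knockout-labelled library). Doublets were called from simulated pairs and removed, 113 (3.09%) and 649 (7.36%). Cells were clustered (Leiden, leidenalg 0.10.2; scikit-learn 1.9.0) on 2000 variable genes and 30 components, without the members and listed genes, in 33 clusters, and the numerical cut-offs for naming were set after the clusters were seen. A name needed at least 3 markers. UMI counts were summed over each class and library (totals of 94414 to 16286733 UMIs), and ratios of CPM have exact conditional 95% intervals, levels exact Poisson and shares exact binomial ones (numpy 2.4.6, scipy 1.17.1, Python 3.11.15). Free RNA was estimated from 12 genes of another lineage. Log2 ratios have 10 CPM added, and the ratio code was tested on simulated data. Cells are not replicates, so no test across genotypes was run.

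The members and lists were chosen with earlier results of these data known. Genes with full values are, in each of 7 role groups and each of macrophages and monocytes, CD8 T cells and NK cells, the 2 members with the largest absolute log2 ratio at a mean of at least 50 CPM, the highest and lowest class of members, and the 2 highest and 2 lowest of each of 4 other lists in those 3 classes. Others were named after their values were seen. One gene that this rule names is not reported here. The alternatives tried were other scalings, cell filters, doublets kept, thinning, other weights of clusters, cells and members, another added CPM, level filter and fold, and, added after the data were seen, cells of 2000 to 4000 UMIs and leaving out neutrophils.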

Additional observations from a re-analysis of the deposited data

Results flagged for a closer look

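The summed AP-1 level of macrophages and monocytes went the opposite way to the other classes: its ratio, knockout-labelled over wild-type library, was 1.25, while 12 classes had ratios of 0.514 to 0.949 with intervals below 1. The difference between classes was not tested, since each rests on the same 2 libraries. For the heat shock sum, NK cells (1.03) and neutrophils (2.88) had intervals above 1, while 9 classes had ratios of 0.767 to 0.952 with intervals below 1. These differences were not tested either. Both NK clusters, taken singly, had a lower heat shock level in the knockout-labelled library (10649.7 and 10485.5 CPM, 13829.8 and 12412.2 CPM). In knockout-labelled neutrophils, free RNA at the share of T cell genes would give 61.7% of the heat shock level. In cells of 2000 to 4000 UMIs the AP-1 ratio of type 2 conventional dendritic cells was 1.26 (1.17 to 1.36) and that of migratory dendritic cells 1.06 (0.951 to 1.17), both above 1, the second with an interval that includes 1.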

How the results depend on the processing

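Values here are log2 ratios, knockout-labelled over wild-type library. AP-1 in macrophages and monocytes was 0.33. It was 0.25 with ribosomal and mitochondrial genes left out of the total, 0.52 scaled by the median gene, 0.28 with doublets kept, 0.41 with cells thinned to 1000 UMIs, 0.36 as a mean over cells and 0.46 as the median of its members. It was 0.66 in cells of 2000 to 4000 UMIs (added after the data were seen), and it reversed to -0.055 with clusters weighted equally, where only the 3 clusters with 20 cells in both libraries enter. AP-1 in CD8 T cells, -0.54, was -0.45 scaled by the median gene, -0.59 with at most 5% mitochondrial UMIs, -0.58 thinned and -0.071 as the member median. Member medians in this section take all members of a set, also those below a mean of 50 CPM. Over the 6 AP-1 members at or above it in CD8 T cells the median was -0.32. AP-1 in NK cells, -0.34, was -0.27 scaled by the median gene, -0.46 with clusters weighted equally, -0.38 as a mean over cells and -0.22 in cells of 2000 to 4000 UMIs, and it reversed to 0.047 as the member median. The number of classes with higher AP-1, 1, was 2 scaled by the median gene, 0 with clusters weighted equally, 4 by member medians and 3 in cells of 2000 to 4000 UMIs.

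Heat shock in macrophages and monocytes, -0.38, was -0.46 without ribosomal and mitochondrial genes, -0.19 scaled by the median gene, -0.43 thinned, -0.089 with clusters weighted equally, -0.27 as the member median and -0.45 in cells of 2000 to 4000 UMIs. In CD8 T cells, -0.13, it was -0.037 scaled by the median gene, -0.17 with at most 5% mitochondrial UMIs, -0.067 thinned, -0.16 with clusters weighted equally and -0.16 as the member median, and it reversed to 0.10 in cells of 2000 to 4000 UMIs. In NK cells, 0.05, it was 0.12 scaled by the median gene, 0.13 as the member median and 0.093 in cells of 2000 to 4000 UMIs, and it reversed to -0.089 with clusters weighted equally. The number of classes with higher heat shock, 2, was 4 without ribosomal and mitochondrial genes, 5 scaled by the median gene, 1 with clusters weighted equally, 4 by member medians and 5 in cells of 2000 to 4000 UMIs. Apart from the alternatives named, the cause of each was not tested.

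Of 409 member and class pairs tested, 13 were past 2-fold higher. They were 8 with 50 CPM added, 32 at a log2 ratio of 0.5 and 7 of 377 without neutrophils (added after the data were seen). The 18 past it lower were 103 at 0.5 and 5 without neutrophils. The shares of all genes past 2-fold are given by class above. They were not counted at 0.5 or with 50 CPM added, so those numbers have no background to be read against. The other alternatives left these values within their counting interval, or the counts within 1.5 times. No paired analysis was possible because each genotype has 1 library, and for the same reason no library could be left out. Depth limits the classes of under 100 cells and the members near 50 CPM.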

Other observations

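Classes with too few cells to compare still had a place in the map of levels. Mast cells and basophils, 184 cells of the wild-type library and 14 of the knockout-labelled library, had AP-1 sums of 15069 (14749 to 15394) and 16486 (15299 to 17741) CPM, with 95% Poisson intervals in parentheses. The first was below the 19408 CPM of microglia in its library and the second above their 13986 CPM. The class pools a basophil cluster led by Il4, Il6 and Hdc (106 cells of the wild-type library) and a cluster of mast cells (78 cells; Tpsb2, Mcpt1 and Mcpt2 lead), which differed. In the wild-type library AP-1 was 21506 CPM in the first and 11079.7 CPM in the second. Egr1 was 6773 and 651 CPM, Ier3 9637 and 1323 CPM and Fosb 3153 and 1833 CPM. In the whole class Jund was 4415 CPM in the wild-type and 3048 CPM in the knockout-labelled library. Fosb was 2338 and 3925 CPM and Dnajb1 649 and 808 CPM in the same order. These levels were above those of every class compared in the same library. Gamma-delta T cells (39 and 48 cells) had 13056 (12361 to 13780.0) and 8456 (8014 to 8916) CPM of AP-1. Junb was 5612 (5159.9 to 6094) and 2419.5 (2186 to 2671) CPM in them. Their Jund, 3336 and 2963 CPM, and Fosl2, 1297 and 654 CPM, were above those of NK cells. Plasmacytoid dendritic cells (47 and 96 cells) had little Junb, 464 (377 to 566) and 365 (323 to 412) CPM, and AP-1 sums of 5823 (5502 to 6158) and 5926 (5751 to 6105) CPM. Their heat shock sums were 11318 (10869 to 11782) and 11466 (11222 to 11714) CPM.

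In B and plasma cells, 10 of 13 endoplasmic reticulum chaperone genes were past 2-fold lower in the knockout-labelled library (4.48% of all genes tested were) and none higher, with a median log2 ratio of -1.39 against 0.08 for all genes. The sum of the heat shock members in the same cells was 8167 and 7633 CPM, a ratio of 0.935 (0.895 to 0.976). In cells of 2000 to 4000 UMIs, however, the ratio was above 1, 1.24 (1.1 to 1.4). The shares of B cells and plasma cells within the class were not tested.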
